A study of Mus musculus with 6 samples.

Results

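Regions of open chromatin were followed at 9 genes of lipid handling and of the alveolar fibroblast: the nuclear receptor gene Pparg, the C/EBP factor genes Cebpa, Cebpb and Cebpd, the retinoic acid receptor gene Rarb, the lipid genes Plin2, Cd36 and Lpl, and the matrix gene Npnt. A region was included when the deposited tables named one of these genes as nearest and placed it within 100 kb of a start site of that gene. This gave 52 of 64217 regions in the table of 32 kPa against plastic, 2 of the 2121 regions listed as higher on 32 kPa than on 0.2 kPa, and 1 of the 2114 listed as higher on plastic than on 0.2 kPa. Cells were GFP-positive fibroblasts sorted from lungs of Col1a1-GFP transgenic mice, so all groups carry the reporter and were selected for its signal. They were grown for 8 days with 10% serum on 0.2 kPa PDMS (a soft silicone), 32 kPa PDMS or tissue-culture plastic, each coated with collagen I, and no other agent was added. Omni-ATAC-seq, a transposase-based assay of accessible DNA, was run on 2 libraries of 50000 cells per culture. The age and sex of the mice, and whether libraries came from separate animals, are not given in the sources used here. The p-values of the authors may thus reflect technical spread alone. Each culture has 1 deposited mean per region, in log2 normalised reads, so the spread between libraries and the depth are unknown.

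PPAR gamma, the product of Pparg, forms a dimer with RXR and switches on genes of fatty acid uptake and storage. C/EBP factors act with it in fat cell differentiation. In the lung, lipid-laden interstitial fibroblasts near the alveoli carry this programme together with retinoid storage, and retinoic acid acts through receptors that include RAR beta. Macrophages and fat cells use several of the same genes.

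The chromatin matched the fibroblast label. Promoter regions were present at 7 of 8 fibroblast markers (Col1a1, Col1a2, Pdgfra, Pdgfrb, Thy1, Twist1 and Dcn, but not Lum), at levels of 3.76 to 6.49 on 32 kPa and 2.97 to 6.32 on plastic. None was present at 10 macrophage markers, among them Ptprc, Spi1, Csf1r and Marco, at 4 fat cell markers (Adipoq, Lep, Adrb3 and Ucp1) or at 4 epithelial markers. Of 4 endothelial markers only Tek had any, with 2 weak regions at 3.13 and 0.37 on 32 kPa and at 3.71 and 3.02 on plastic. Summed over the fibroblast list, promoter regions held 306 normalised reads on 32 kPa and 310 on plastic. The endothelial sum, from Tek alone, was 10.0 on 32 kPa and 21.2 on plastic, and its part in the results was not tested. The same sums on 0.2 kPa were not analysed here, because only listed regions have a level on that surface. Some fibroblast markers were themselves listed as higher than on 0.2 kPa. On 32 kPa these were 3 of 8 (Col1a2, Thy1 and Twist1), and on plastic 2 of 8 (Col1a1 and Col1a2). Of all genes with a region high enough or listed, 17.2% were listed on 32 kPa and 15.5% on plastic. The 8 markers were counted whether or not they had such a region, so the shares do not have the same base. Only Twist1 on 32 kPa and Col1a1 on plastic were listed at a promoter. The listed regions of Col1a2 and Thy1 were intergenic, 15.5 to 86.6 kb upstream. The Col1a1 promoter, of the gene for which the sorting reporter is named, had 4.55 on 0.2 kPa and 5.61 on plastic (fold 1.06, FDR = 0.032 in the authors' deposited table). No macrophage, fat cell, epithelial or endothelial marker was listed. Apart from the weak regions of Tek, their promoters held no region, so absence from the lists there says nothing about change. The part of these marker differences in the listings of Rarb, Cd36 and Cebpd was not tested.

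The Rarb promoter was the region near a start site that the authors listed against the soft surface. Its sequence is shown with those of the Cebpa promoter, which was open but not listed, and of the Pparg promoter, which was barely open. Each line gives the 250 bases before the start site, from RefSeq on build GRCm38.p6, whose coordinates mm10 shares, 5′ to 3′ on the gene's strand. Of the 9 genes, 7 had such a sequence, and Cebpd and Lpl are named only. Capitals in Rarb mark, in order, the direct repeat of GTTCA with 6 bases between its 2 copies, a C/EBP match and a TEAD match. Capitals in Cebpa mark a TATAAA box, and those in Pparg the receptor core motif AGGTCA.
Rarb, chr14:16575477-16575726, minus strand: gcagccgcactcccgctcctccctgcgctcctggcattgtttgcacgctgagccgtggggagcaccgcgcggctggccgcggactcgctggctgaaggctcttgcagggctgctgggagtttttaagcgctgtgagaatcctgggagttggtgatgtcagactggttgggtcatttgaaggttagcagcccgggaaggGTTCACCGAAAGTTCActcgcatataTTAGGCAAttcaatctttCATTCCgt
Cebpa, chr7:35119043-35119292, plus strand: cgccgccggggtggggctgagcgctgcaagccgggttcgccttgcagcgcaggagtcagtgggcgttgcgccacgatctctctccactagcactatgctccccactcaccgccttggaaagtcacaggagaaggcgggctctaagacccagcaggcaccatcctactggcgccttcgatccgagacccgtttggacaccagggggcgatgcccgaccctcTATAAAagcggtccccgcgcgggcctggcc
Pparg, chr6:115360894-115361143, plus strand: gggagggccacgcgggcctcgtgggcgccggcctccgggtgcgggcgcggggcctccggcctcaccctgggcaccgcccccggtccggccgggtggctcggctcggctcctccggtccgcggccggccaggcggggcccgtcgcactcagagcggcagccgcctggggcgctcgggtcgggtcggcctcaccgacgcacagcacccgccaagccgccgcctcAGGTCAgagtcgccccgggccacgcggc
All 250 bases of the Rarb and Cebpa sequences lay inside a deposited region, against 124 of those of Pparg. The marked AGGTCA of Pparg lies outside that region. The deposited distance places the Pparg region 62 bases downstream of a start site, yet it lies before the start site used here. The 2 start sites therefore differ.

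The GTTCA repeat of Rarb lies 52 to 37 bases before the start site (chr14:16575513-16575528). It was found in 25 of 32851 promoter windows of 300 bases (0.0761%), searched on both strands. The Rarb promoter is known for a retinoic acid response element of this form, through which retinoic acid raises the gene's own receptor. The repeat was added to the search after the other motifs were chosen. The C/EBP motif TTGCNNAA occurred in 10.8% of windows and the TEAD motif GGAATG in 14.7%. TATAAA, also added to the search later, occurred in 13.6% of windows and in 3 of the 10 of these genes. The core motif AGGTCA stood in 5 of the 10 windows of these genes, against 16.3% of all windows. The 10 windows come from 7 genes, with 3 from Pparg, which holds more than 1 of the 5 matches. The Cd36 window and a Pparg window among the 5 overlapped no deposited region. This share was not tested. None of the 10 held 2 copies of AGGTCA in direct repeat with 1 base between, the classic PPAR and RXR arrangement (0.0396% of all windows), or with 5 bases between (0.00913%). None held the CRE motif TGACGTCA (1.79%) or the AP-1 motif TGANTCA (7.81%). No match overlapped another in the sequences shown.

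Rarb encodes RAR beta, a nuclear receptor for retinoic acid. Its promoter region (chr14:16575433-16575740) had a level of 5.24 on 0.2 kPa and 6.32 on plastic in the authors' deposited table. It thus rose by 1.08 on the log2 scale, 2.11-fold, on plastic (p = 0.000366, FDR = 0.0064 in the authors' deposited table). More cells with an open promoter and a promoter more open in each cell cannot be told apart in such bulk libraries. The matching region of the comparison of the stiffer cultures stood at 5.96 on 32 kPa and 6.31 on plastic. On 32 kPa the promoter therefore lay about 0.73 above 0.2 kPa, below the fold of 1 that every listed region reached. Its difference between the stiffer cultures was 0.35 with p = 0.252 in the authors' deposited table, so the listing on plastic alone does not separate them.

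Cd36 encodes a scavenger receptor that takes up long-chain fatty acids. An intergenic region (chr5:17753567-17754085) lay 82.1 kb downstream of a start site inside the gene. Its level was 4.34 on 0.2 kPa and 5.57 on 32 kPa in the authors' deposited table. The rise was 1.23 on the log2 scale, 2.35-fold (p = 0.00305, FDR = 0.0239 in the authors' deposited table). It lies 27.6 kb past the end of Cd36 and 23.3 kb from the end of Sema3c, a semaphorin gene, so its assignment to Cd36 rests on the nearest start site. The comparison of the stiffer cultures split it into 2 pieces, at 4.47 and 4.80 on 32 kPa and at 4.35 and 4.30 on plastic. Summed, the pieces came to 5.64 on 32 kPa and 5.33 on plastic, with plastic 0.99 above the 0.2 kPa level. Read across from the longer piece alone, plastic stood at 5.07, 0.73 above 0.2 kPa. No region lay within 1 kb of a Cd36 start site. The nearest was in intron 1, at 4.02 on 32 kPa and 3.57 on plastic. It lay 12.1 kb downstream of the start site at the 5′ end of the gene. Its distance and that of the listed region thus count from different start sites.

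Cebpd encodes C/EBP delta, an early factor of fat cell differentiation that also responds to inflammation. Its listed region (chr16:15984304-15984831), 97.3 kb downstream, lies in intron 7 of the neighbouring gene Spidr, which acts in DNA repair. The level was 4.95 on 0.2 kPa and 5.96 on 32 kPa in the authors' deposited table. This was a rise of 1.02, 2.03-fold (p = 0.00374, FDR = 0.0264 in the authors' deposited table). The matching region stood at 5.97 on 32 kPa and 5.43 on plastic, so plastic lay about 0.47 above the soft surface. That gap between the stiffer cultures, 0.55 lower on plastic, had the smallest p of all 52 regions (p = 0.107 in the authors' deposited table). The Cebpd promoter, the strongest of the 52 regions at 7.2 on 32 kPa and 6.9 on plastic, was not listed in either comparison with 0.2 kPa.

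**Figure D1:**
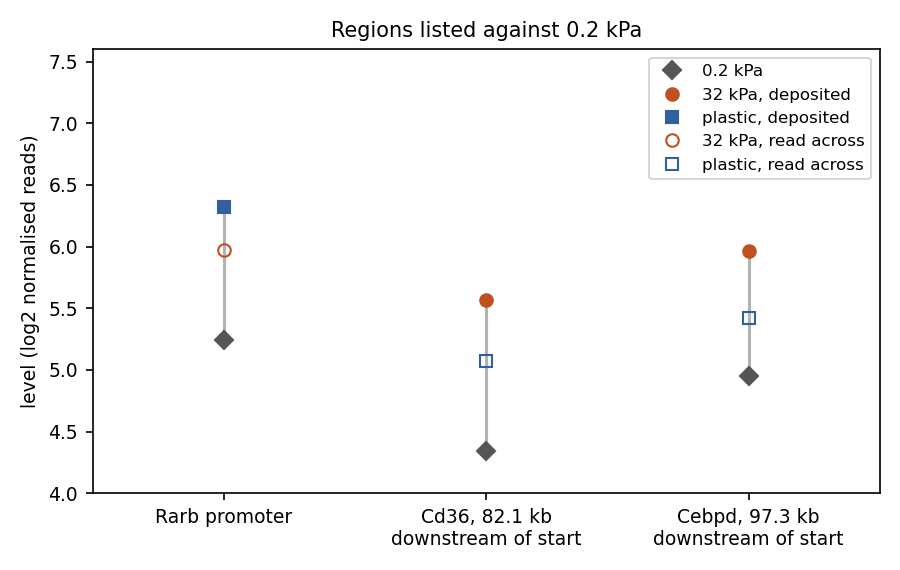
Levels of the listed regions of Rarb, Cd36 and Cebpd on the 3 cultures, in log2 normalised reads (authors' means, no error available); open symbols are the deposited level on the stiffer culture plus the difference at the best matching region of the comparison of 32 kPa with plastic. All symbols of the stiffer cultures lie above the 0.2 kPa level, with Rarb highest on plastic and Cd36 and Cebpd highest on 32 kPa. For the culture of the listing, a level above 0.2 kPa is set by the choice of listed regions. That choice also favours this culture as the highest.

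The counts of listed regions and genes were set against those of all regions. On 32 kPa, 11 of the 52 regions reached the lowest listed level of 4.97 or overlapped a listed region, and 3 of these 11 overlapped one (the 2 Cd36 pieces and Cebpd), against 12.5% of 15444 such regions genome-wide. Of genes with a region that reached this level or was listed, 2 of 6 were listed, against 17.2%. On plastic, 1 of 13 such regions was listed, against 11.2% of 16199, and 1 of 7 genes, against 15.5%. On 32 kPa, 9 of the 52 regions reached the level themselves, and of these only the Cebpd region overlapped a listed one. The 2 Cd36 pieces, at 4.47 and 4.80, entered only by overlap with 1 listed region. Cd36 entered the gene count on 32 kPa in the same way. The higher shares on 32 kPa thus follow in part from the counting, and no direction is read from them. On plastic the shares lay below the background. All these shares rest on 2 genes and 1 gene and were not tested. No region of Npnt, Plin2, Pparg or Cd36 reached the lowest listed level on 32 kPa, although the Cd36 pieces overlapped a longer listed region. On plastic none of Cd36 or Npnt reached it. Where a gene is absent from a list for this reason, its absence says nothing about change. The listings share the 0.2 kPa libraries. No region was listed in the opposite direction in either table, for these genes or any other, so a fall on the stiffer surfaces could not be seen in the tables used here.

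**Figure D2:**
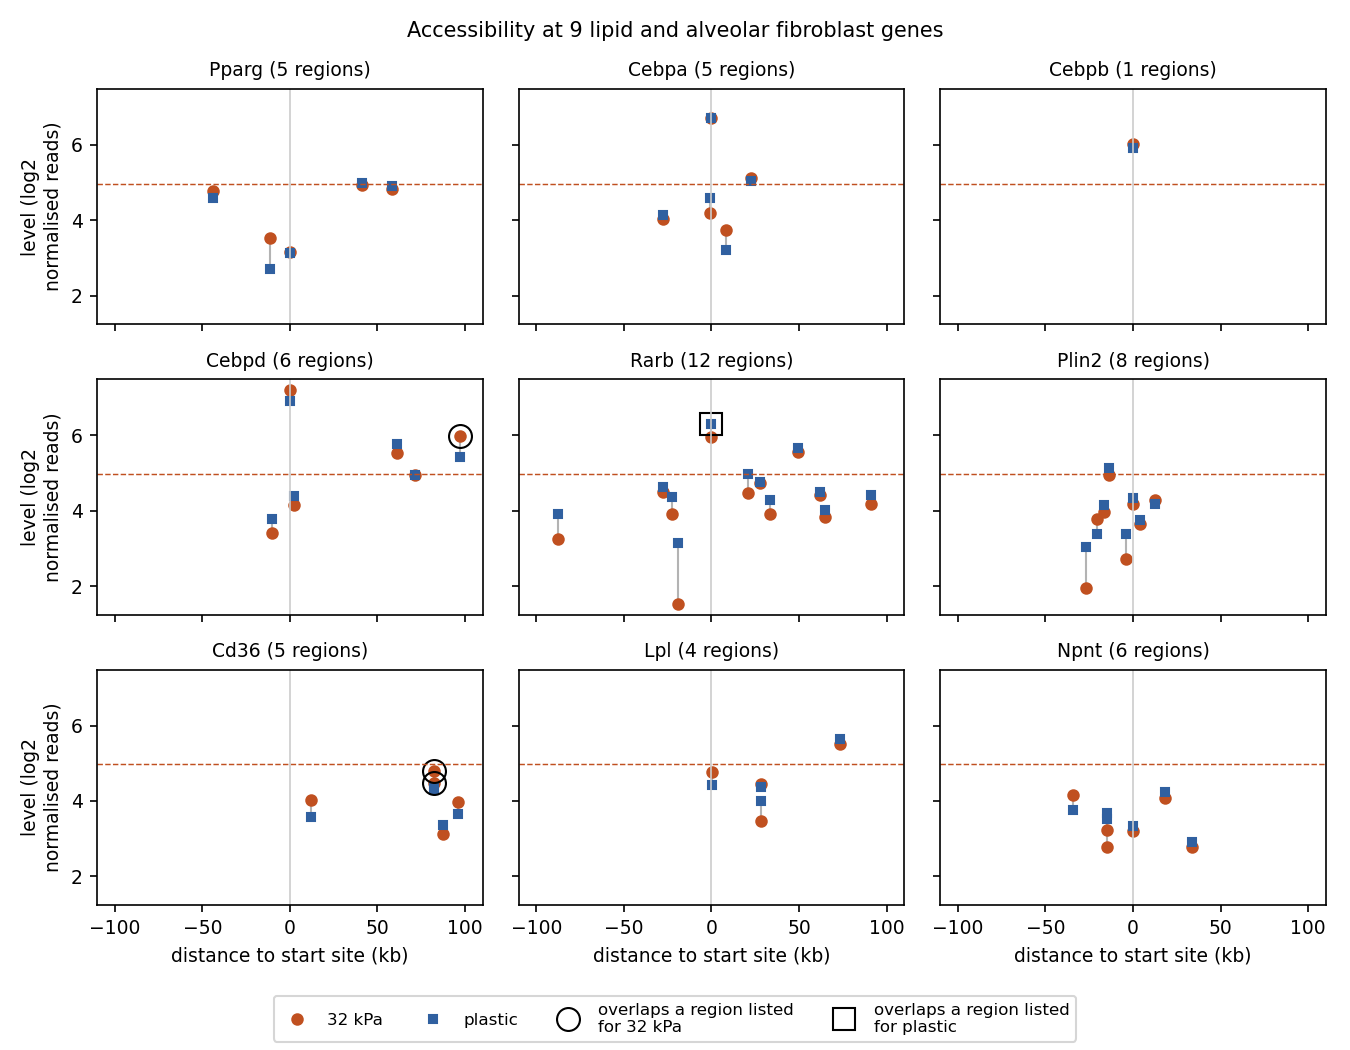
Level of each of the 52 regions on 32 kPa (circles) and plastic (squares), in log2 normalised reads, by distance to the start site in kb; outlined symbols overlap a region listed as higher than on 0.2 kPa, and the dashed line is the lowest listed level on 32 kPa, 4.97. On 32 kPa only the Cebpd and Cebpa promoters and the first exon of Cebpb lie above 6, and every region of Npnt lies below the line.

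Start sites of the C/EBP genes and Rarb had higher levels per length than those of the lipid genes, Npnt and Pparg. Per length, the scale on which genes can be compared, the Cebpd promoter had 8.38 log2 normalised reads per kb on 32 kPa and 8.08 on plastic, higher than 94.3% of 12568 promoter regions on 32 kPa. The Cebpa promoter followed with 7.70 and 7.71 per kb, then the Rarb promoter with 7.54 and 7.89. The only region of Cebpb, whose product C/EBP beta acts early in fat cell differentiation, spans its start site and is annotated as exon 1. It had 7.48 per kb on 32 kPa and 7.37 on plastic. All of these lay above the median promoter, at 7.23 on 32 kPa and 7.26 on plastic. The Plin2 promoter, of the gene for the lipid droplet coat protein perilipin 2, had 7.01 and 7.16 per kb. Lpl, which encodes lipoprotein lipase, had 6.68 and 6.33, and Npnt, which encodes the integrin ligand nephronectin, had 6.61 and 6.75. Pparg came last with 6.17 and 6.14, above 3.2% of promoter regions on 32 kPa. Cebpa lay above Rarb and Lpl above Npnt on 32 kPa, and both orders turned on plastic. With no spread between libraries, no order of neighbours is established.

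**Figure D3:**
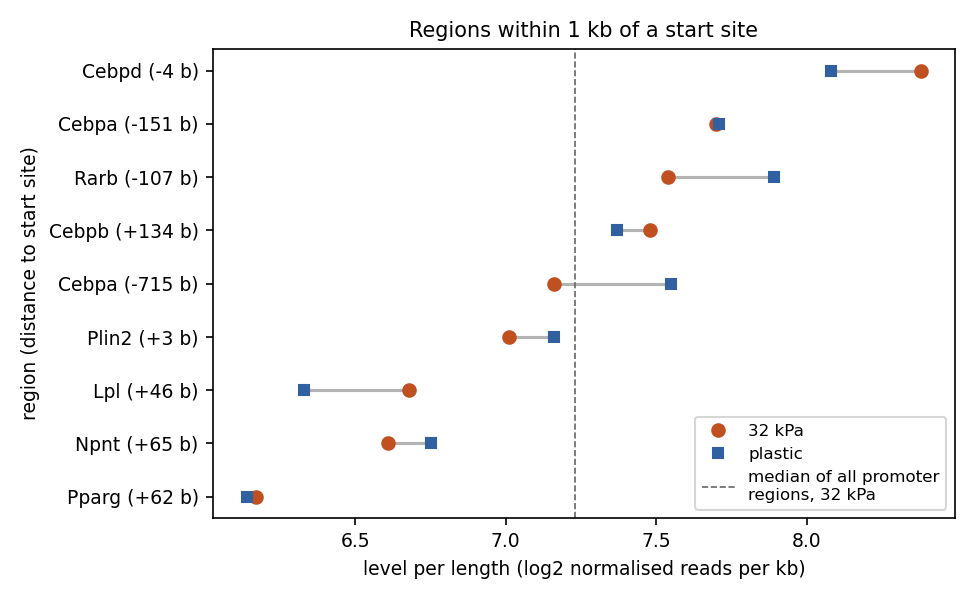
Levels per length (log2 normalised reads per kb, authors' means) of the 9 regions within 1 kb of a start site, on 32 kPa (circles) and plastic (squares), with the median of all promoter regions on 32 kPa as a dashed line. Pparg, Npnt and Lpl lie lowest and Cebpd highest on both surfaces, and Cd36 has no region there.

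Pparg was more open inside the gene and 43.9 kb upstream than at its start, also per length. Its promoter region (chr6:115360952-115361075) had a level of 3.16 on 32 kPa and 3.13 on plastic. The windows of the other 2 Pparg start sites, among them that of the fat cell form PPAR gamma 2, overlapped no region. A region in exon 6, 41.0 kb downstream of the nearest start site, stood at 4.94 on 32 kPa and 5.0 on plastic. An intronic region 58.4 kb downstream followed at 4.83 and 4.91, and an intergenic one 43.9 kb upstream at 4.77 and 4.59. A region 11.1 kb upstream was at 3.54 on 32 kPa, above the promoter, and at 2.70 on plastic, below it. That last fold, -0.84, was the largest at Pparg and had p = 0.291 in the authors' deposited table.

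Cebpa encodes C/EBP alpha, which maintains PPAR gamma in fat cells. Its promoter (chr7:35118891-35119393) was at 6.71 on 32 kPa and 6.72 on plastic, the smallest difference of the 52 regions at 0.01 (p = 0.992 in the authors' deposited table). A smaller region 0.715 kb upstream stood at 4.2 and 4.6, and an intergenic one 22.5 kb downstream at 5.12 and 5.05. The largest difference at Cebpa was at a weak region 8.05 kb downstream, with 3.74 on 32 kPa and 3.21 on plastic. The Cebpb region (chr2:167688867-167689231) was at 6.03 on 32 kPa and 5.92 on plastic. At Cebpd, besides the promoter and the listed region, intron 9 of Spidr held 2 regions, 61.1 and 71.5 kb downstream, at 5.52 and 4.94 on 32 kPa and at 5.76 and 4.95 on plastic. None of the promoters of these 3 factor genes was listed against 0.2 kPa, although each was well above the lowest listed level. They may still have changed by less than a fold of 1, or in the opposite direction.

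The strongest regions of the lipid genes Plin2, Cd36 and Lpl lay below those of the C/EBP genes and Rarb. Most regions of these lipid genes were intergenic. Median levels did not all follow this order. On 32 kPa that of Lpl, 4.61, was above those of Cebpa (4.2) and Rarb (4.29), but on plastic it was below both. Plin2 had 8 regions, from 1.96 to 4.94 on 32 kPa and from 3.04 to 5.13 on plastic, led by one 13.8 kb upstream. The weakest, 27.0 kb upstream, had the largest difference, from 1.96 on 32 kPa to 3.04 on plastic. Its promoter (chr4:86669986-86670127) was at 4.19 on 32 kPa and 4.34 on plastic. The strongest of 4 Lpl regions lay 73.6 kb downstream, at 5.5 and 5.64, and the one that differed most lay 28.0 kb downstream, at 3.46 and 4.0. The Lpl promoter (chr8:68880468-68880735) was at 4.78 and 4.43. All 6 Npnt regions were weak, at 2.78 to 4.16 on 32 kPa and 2.90 to 4.25 on plastic, and its promoter (chr3:132950180-132950273) stood at 3.2 and 3.34. The largest Npnt difference was 15 kb upstream, with 2.78 on 32 kPa and 3.67 on plastic. Of the 5 Cd36 regions 4 were intergenic, between 3.13 and 4.80 on 32 kPa.

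Between 32 kPa and plastic no region of these genes passed the authors' test. The authors' FDR was 1 at each of the 52 regions, and 0% of the 53913 regions within 100 kb of a start site passed an FDR of 0.05 in the authors' deposited table. At an unadjusted p of 0.05 the authors' deposited table had 0 of the 52 and 0.536% of all. The median fold over the 52 regions was 0.12 higher on plastic, with an interquartile range of -0.09 to 0.26, against 0.04 (-0.19 to 0.30) over all regions within 100 kb. The level on plastic was the higher at 35 of 52 regions (67.3%), against 53.8% of all. Folds spread most where levels were low. Of 51 regions that could be placed by level, 49 lay within the 2.5th to 97.5th percentile of all regions of like level. Such a band by definition leaves some of all regions outside it. Outside were the Rarb promoter (fold 0.35, upper limit 0.34) and the Cebpd region in Spidr (fold -0.55, lower limit -0.44). Both are also listed against 0.2 kPa through levels of the same libraries. The region too weak to be placed was at Rarb, 19.2 kb upstream, with a fold of 1.62.

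Rarb stood out by number and direction. It had 12 regions within 100 kb, more than 98.6% of genes with any region, whose median was 2, and 11 of the 12 were intronic. All 12 lay within the gene (chr14:16430839-17082331), around a start site inside it. The number of regions was not adjusted for gene length or for the spacing of start sites. All 12 were higher on plastic than on 32 kPa in the authors' deposited table, with a median fold of 0.29. The folds ran from 0.04 at 27.8 kb downstream to 1.62 at a weak region 19.2 kb upstream (1.53 on 32 kPa and 3.15 on plastic), and the smallest p was 0.161 in the authors' deposited table. Besides the promoter, the strongest was an intronic region 49.2 kb downstream, at 5.55 on 32 kPa and 5.67 on plastic, followed on 32 kPa by one 27.8 kb downstream, at 4.73 and 4.77, and on plastic by one 20.7 kb downstream, at 4.47 and 4.97. Of 244 genes with at least 12 regions within 100 kb, Rarb was the one whose regions were all higher on plastic (0.41%), and the median gene had 53.85% of its regions so. This count was made after the Rarb values were seen, and it depends on the 100 kb limit: of 11 Rarb regions beyond it, 9 were higher and 2 were lower on plastic. The regions share the same 4 libraries and are not independent of each other. Without Rarb the median fold of the other regions was 0.08.

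**Figure D4:**
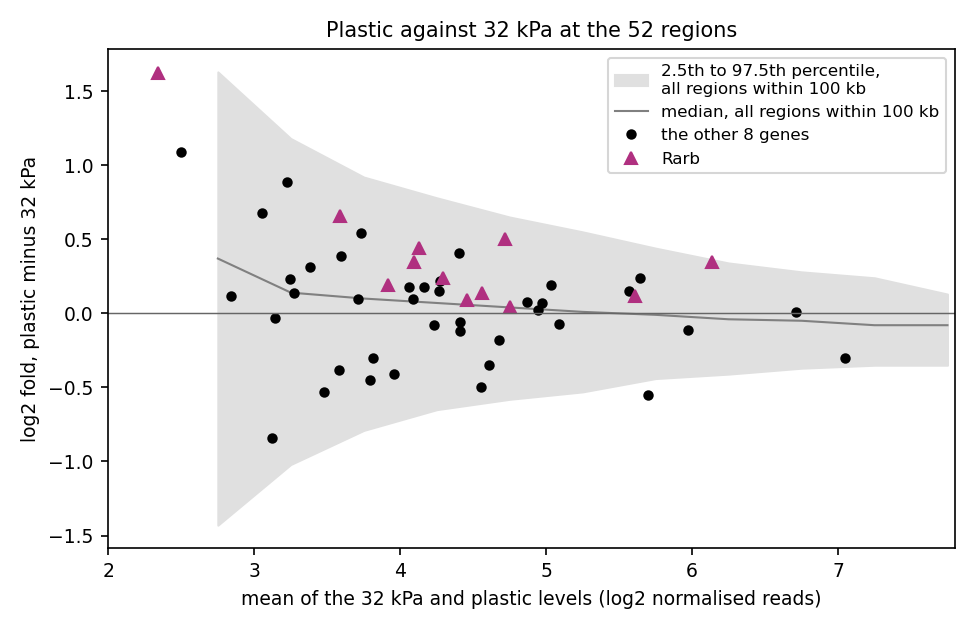
Log2 fold of plastic over 32 kPa at the 52 regions against their mean level (log2 normalised reads), with Rarb as triangles and the other 8 genes as dots; the grey band spans the 2.5th to 97.5th percentile of all regions within 100 kb of a start site. The Rarb triangles all lie above 0, and the spread of all regions narrows from low to high levels.

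The 100 kb limit passes through several of these loci. Just inside it lay the listed Cebpd region and a Cd36 region 95.8 kb downstream, at 3.96 on 32 kPa and 3.66 on plastic. Just outside lay a Rarb region 102 kb upstream (3.73 and 4.29) and Cebpd regions 104 kb (4.54 and 4.14) and 105 kb (5.91 and 5.84) downstream. The table of 0.2 kPa against plastic also names Cd36 at a region 116 kb downstream, in intron 15 of Sema3c. In the authors' deposited table its level was 3.78 on 0.2 kPa and 5.04 on plastic (fold 1.26, FDR = 0.0407). On 32 kPa it was 4.83.

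Listed regions were also counted at other genes of the same pathways. Over 6 lists of 87 genes, 11 of 46 genes with a region high enough were listed on 32 kPa, against the 17.2% of all genes given above, and 8 of 48 on plastic, against 15.5%. The retinoid list had 4 of 7 genes on 32 kPa and 2 of 6 on plastic. The list of fatty acid uptake and synthesis had 5 of 15 and 2 of 16, PPAR partners and cofactors 1 of 11 and 2 of 11, and lipid droplet and lipolysis genes 0 of 6 and 1 of 7. Alveolar fibroblast genes had 0 of 4 on 32 kPa and 1 of 5 on plastic, and the other C/EBP genes 1 of 3 and 0 of 3. Median folds between the stiffer cultures ran from -0.20 (other C/EBP genes) to 0.04 (fatty acid uptake and synthesis), against 0.04 over all regions, and 0 of the 268 regions of these lists had an unadjusted p of 0.05 or less in the authors' deposited table.

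Genes listed on both stiffer surfaces were Dhrs3, Crabp1, Scd1, Scd2 and Klf15, each with an overlapping region in the 2 tables, which share the 0.2 kPa libraries. Dhrs3 encodes a retinal reductase that limits retinoic acid formation. A region 16.9 kb upstream of it rose from 6.40 to 7.56 on 32 kPa (fold 1.16, FDR = 0.000888) and from 6.47 to 7.77 on plastic (fold 1.29, FDR = 4.26e-07) in the authors' deposited tables. At Crabp1, a retinoic acid binding protein gene, a region 38.5 kb downstream rose by 1.04 (FDR = 0.0143) and 1.05 (FDR = 0.00604) in the authors' deposited tables. Scd1 and Scd2 encode stearoyl-CoA desaturases, which make monounsaturated fatty acids. The region 9.4 kb upstream of Scd2 rose by 1.32 on 32 kPa (FDR = 0.00852) and by 1.66 on plastic (FDR = 1.29e-05) in the authors' deposited tables. The Scd1 promoter rose by 1.14 (FDR = 0.0137) and 1.07 (FDR = 0.0169) in the authors' deposited tables. The promoter of Klf15, a factor gene of fat cell differentiation, rose by 1.15 (FDR = 0.0368) and 1.24 (FDR = 0.0271) in the authors' deposited tables.

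The remaining listings fell on 1 surface each. On 32 kPa the promoters of Acly, the ATP citrate lyase gene, and Acsl4, a fatty acid activating enzyme gene, rose by 1.06 (FDR = 0.00488) and 1.24 (FDR = 0.00913) in the authors' deposited table. A region 6.03 kb upstream of Crabp2, a further retinoic acid binding protein gene, rose by 1.01 (FDR = 0.0385 in the authors' deposited table). A region 24.9 kb upstream of Cebpe, a myeloid C/EBP gene, inside Slc7a8, rose by 1.48 (FDR = 0.0121 in the authors' deposited table). On plastic, Abhd5, which encodes an activator of lipolysis, rose by 1.04 at its start site (FDR = 0.00467 in the authors' deposited table). A region inside Mindy3, 47.2 kb upstream of Itga8, which encodes a chain of the nephronectin receptor, rose by 1.01 (FDR = 0.0358 in the authors' deposited table). The promoter of Med1, a coactivator of PPAR gamma, rose by 1.24 (FDR = 0.0337 in the authors' deposited table). Whether any of these differed between the stiffer surfaces is not shown by a listing on 1 of them.

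**Figure D5:**
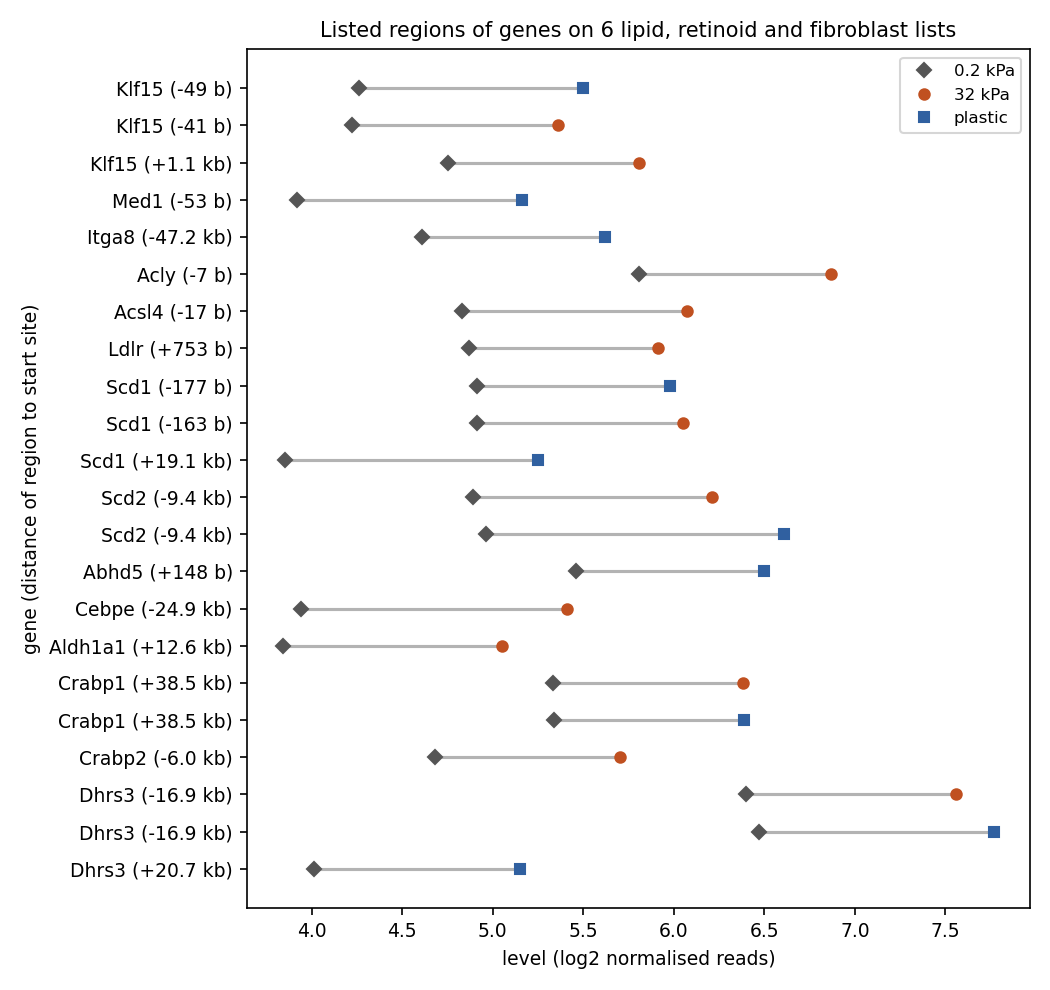
Levels (log2 normalised reads, authors' means) of the 22 listings within 100 kb of genes on the 6 lists, on 0.2 kPa (diamonds) and on 32 kPa (circles) or plastic (squares), labelled with the distance to the start site. A region listed on both stiffer surfaces is drawn once for each, as at Dhrs3, Crabp1, Scd1, Scd2 and Klf15. The Dhrs3 region 16.9 kb upstream is the strongest on every surface, and that of Scd2 on plastic has the longest line, from 4.96 to 6.61.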

How the data were processed

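Omni-ATAC-seq libraries of 3 cultures, 2 per culture, were grouped by their titles. BWA, Picard, MACS2, DiffBind and build mm10 stand in the submitters' processing notes without versions. Read shifting, peak merging and scaling are not given in the sources used here. Per the file headers, the authors' deposited levels and folds are log2 values: a mean of normalised reads per culture and the difference of 2 such means. Each p-value and FDR was also deposited by the authors and was not recomputed. Gene names, distances and annotations were used as deposited. The assigned gene has the nearest start site, and a region may act on another. Distances count from that start site, so those at Pparg, Cd36 and Rarb do not all share an origin.

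The tables of 0.2 kPa name their sides Control and Treat. At 643 intervals shared with the table that names its cultures, Control equalled the 32 kPa level. At 653 such intervals it exceeded the plastic level by 0.01 to 0.02. Control was taken to be the stiffer culture on this basis. Starts in these tables were raised by 1 to match. Both hold only folds of 1 or more with an FDR of 0.05 or less. A repeated header row was dropped from the larger table.

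No test beyond the authors' was run. Regions of different tables were matched when they shared at least 50% of both lengths, and counted as overlapping at 1 bp. Levels per length are the level minus log2 of the region's length in kb. Matching and motif search were tested on simulated data. All 9 genes were named. At each, promoter, strongest and listed regions and those with the largest fold or smallest p were to be given, and from the wider lists up to 4 listed genes each. In these lists 1 gene is not reported here and was left out of every count. Alternatives were distances of 10 kb, 50 kb or without limit, an FDR of 0.01, and matches of 1 bp or 90%. Genes, lists and tests were chosen with earlier results of these data known. Python 3.11.15, pandas 2.3.3, numpy 2.4.6 and matplotlib 3.10.9 were used.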

Additional observations from a re-analysis of the deposited data

How the results depend on the processing

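The number of regions listed on 32 kPa rests on distant regions and on the FDR limit. With distances of at most 10 kb or 50 kb, or with an FDR of at most 0.01, it was 0 in place of 2. On plastic, the Rarb promoter was listed under each of these settings, and without a limit on distance the count was 2, because the Cd36 region inside Sema3c was added. No region differed between 32 kPa and plastic under any setting tried. The median fold between these cultures was 0.12 at each distance limit, 0.07 over regions at or above the median level, and 0.08 without Rarb, an alternative added after the data were seen. The level of the Cd36 region on plastic was 4.30 at the best matching piece and 5.33 as the sum of both pieces, also added later, because the pieces are shorter than the listed region. No match at 90% of both lengths existed for it. Within 10 kb the strongest region was the same at 4 of the 8 genes that had one.

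No paired analysis was possible because the tables hold 1 mean per culture, and leaving out single replicates was not run for the same reason. Counting error was not computed, as depth is unknown.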

Other observations

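The 11 Rarb regions beyond 100 kb of a start site all lay within its introns. The strongest lay 196 kb upstream, at 4.97 on 32 kPa and 5.06 on plastic, and 238 kb upstream, at 4.99 and 4.82. The largest fold in the authors' deposited table was at a weak region 177 kb upstream, with 3.18 on 32 kPa and 1.70 on plastic (fold -1.48, p = 0.173).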
